A study of Mus musculus with 76 samples.

Results

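The 11 wild-type (WT) 2-cell mouse embryos of the series were divided into groups chosen by their own measured values of 1 gene, Cyp11a1. The limit was a level of 1 CPM, the share of a library's counts scaled to 1000000. Of the 11 embryos, 8 lay at or above it and are called embryos with Cyp11a1 (female replicates 2, 3, 4 and 5 and male replicates 3, 4, 5 and 6). The other 3 lay below it and are called embryos without Cyp11a1 (female replicate 1 and male replicates 1 and 2). No level lay near the limit: the highest embryo below it had 0.171 CPM and the lowest above it had 37.1 CPM. The whole series holds 76 libraries, each of polyadenylated RNA from a single oocyte, embryo or extraembryonic ectoderm, either WT or with a maternal knockout of Ezhip (matKO). Ezhip is an inhibitor of the Polycomb complex PRC2, and the matKO label names a loss on the mother's side. The 12 matKO 2-cell embryos (6 female, 6 male) and the 7 oocytes (3 WT, 4 matKO, all labelled female) are used here for comparison only. The labels give sex for each library, but not litter, oocyte donor, strain, collection method or age beyond the stage.

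Cyp11a1 encodes the mitochondrial enzyme that cuts the side chain of cholesterol and so begins the synthesis of every steroid hormone. In the ovary it is known from theca cells and from the granulosa cells that surround the oocyte and turn into luteal cells after ovulation. Star carries cholesterol to that enzyme, and Hsd3b1 works on its product on the way to progesterone. Granulosa cells also make inhibins and activins, protein hormones that act on the pituitary and within the follicle. The 2-cell mouse embryo is the stage at which maternal RNA is cleared and the embryo's own genome is switched on.

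Because Cyp11a1 set the groups, its own levels are described without a test. Each other gene was tested for going with the split, which shows the company of Cyp11a1 across these 11 libraries and not the effect of a condition. Cyp11a1 was at 0 CPM in female 1 and male 1 without it, and male 2 had 2 counts, or 0.171 CPM. Among the embryos with it, levels ran from 37.1 CPM in female 2 to 396 CPM in female 4, with a median of 111 CPM. In order, the others were at 63 (male 5), 104 (male 6), 105 (male 4), 117 (female 3), 203 (male 3) and 240 CPM (female 5). All 12 matKO 2-cell embryos were at 0, which over their 52.9 M counts (M, 1000000) allows a level of up to 0.0567 CPM by counting error.

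The library total entered the rule as the divisor of the Cyp11a1 counts, and the identifier number did not enter it. The embryos without Cyp11a1 differed from the others in both features. Their totals, 9.42, 11.7 and 14.1 M counts, were above those of all 8 embryos with Cyp11a1, which ran from 1.05 to 8.53 M (two-sided exact permutation test, p = 0.0121, the smallest that 8 against 3 can give; adjusted p = 0.0242 over 4 features). Their library identifiers carried the numbers 25, 26 and 27, and those of the embryos with Cyp11a1 ran from 28 to 36 (p = 0.0121, adjusted p = 0.0242, exact permutation test). What the identifier number stands for is not given, and number and split cannot be told apart. The number of genes with a count did not separate the groups (means of 16541 with and 14296 without, exact permutation p = 0.17, adjusted p = 0.226). Brought to an equal depth of 1 M counts, a step added after the data were seen, the embryos without Cyp11a1 had 9495, 13240 and 13593 expected genes against 12987 to 15894, ranges that overlap (exact permutation p = 0.0364). Male 1 had the fewest. The part of depth and gene number in the differences below was not tested beyond the fits named there. Sex did not separate the groups, with 50% of the embryos labelled female against 33.3% (Fisher's exact test, p = 1).

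**Figure D1:**
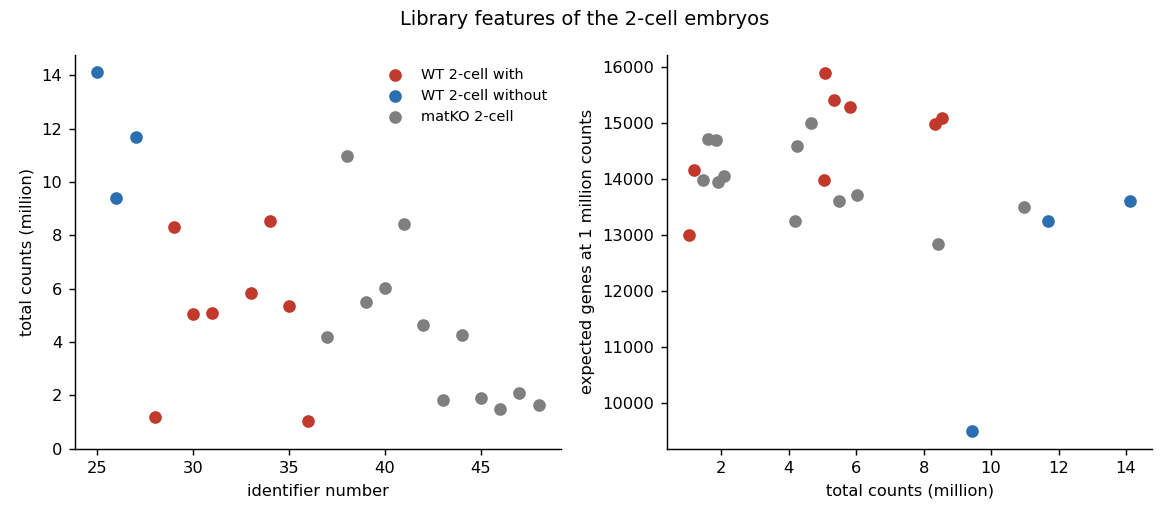
Left, total counts of each 2-cell library, in M (1000000 counts), against its identifier number; right, expected number of genes at an equal depth of 1 M counts against the total. Each point is 1 library; the 3 WT embryos without Cyp11a1 have the numbers 25 to 27 and totals above 9 M, and the lowest point on the right, at 9495 genes, is male 1.

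With identifier and group tied in this way, the test asked which RNAs went with the split. Across 14425 genes tested, 508 were higher in the embryos with Cyp11a1 (3.52% of those tested) and 867 were lower (6.01%), or 9.53% in either direction (edgeR quasi-likelihood test with sex as a term, Benjamini-Hochberg adjusted p under 0.05). Every embryo with Cyp11a1 lay above every embryo without it for 1202 genes (8.33%), and below for 582 genes (4.03%). The median log2 difference over all tested genes was 0.24, with over without, and lists are read beside that value. Under relative log expression (RLE) scaling and in DESeq2 that median was 0.31, and higher genes made up 44.2% and 61.7% of the calls, against 36.9% here. The count of higher genes fell by more than 1.5 times when any 1 of the 6 male embryos was left out, to 319, 315, 316, 254, 311 and 228 without males 1 to 6 in turn. The count of lower genes fell that far without male 1 (559) and male 6 (572). With the identifier number as a further term only 2 genes were called, Hsd3b1 and Aldh1a1, both higher. The typical standard error (SE) of a log2 difference then rose from 0.72 to 1.16. Without male 1, 16 of the 77 named calls were lost: Hsd17b1, Nr5a2, Fst, Kdr, Flt1, Tfap2c, Odf2, Fbl, Hspb1, Ier2, Dusp1, Pdk1, Tnfrsf11a, Gcm1, Metap1d and Snrpd3. A gene with no count in the 3 embryos without Cyp11a1 passed the filter on low counts only through the other 8, so its direction was fixed, and neither its p-value nor a count of such genes adds support. The same holds for Hsd3b1, Idh1, Lyz2 and Ovgp1, which had only a few counts in those 3 embryos. It thus covers both genes called with the identifier number as a term.

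Hsd3b1, Star, Scarb1 and Hsd17b1, of the steroid pathway itself, were higher in the embryos with Cyp11a1. In mm10 coordinates Cyp11a1 lies on chromosome 9 (58006411 to 58027023), Hsd3b1 on chromosome 3 (98852194 to 98859794) and Star on chromosome 8 (25806555 to 25815982). Hsd3b1 was at 0, 0 and 0.0856 CPM in the embryos without Cyp11a1, 1 count in all. In the embryos with Cyp11a1 its lowest, median and highest levels were 92.7, 225 and 1067 CPM. The groups did not overlap, and the pooled ratio was 10248, with a 95% interval of 1839 to 404792 that covers counting error only (adjusted p = 6.11e-05). Star had no count in the 3 embryos without Cyp11a1 and 4.29, 17.6 and 52.7 CPM at its lowest, median and highest in the others. Its mean was at least 250-fold higher, set against the level of 3 counts over the 3 libraries without (0.0851 CPM), and the adjusted p was 0.000479. Scarb1, the receptor that takes up cholesterol from high-density lipoprotein, stood at 4.18, 0 and 0 CPM in female 1, male 1 and male 2 without Cyp11a1, and from 18.9 to 90.3 CPM with it. The difference was 5.03 ± 1.14 on the log2 scale (SE; adjusted p = 0.0102), again without overlap. Hsd17b1, which activates estrogen, was at 0 in all 3 embryos without and in female 3 with Cyp11a1, and reached 6.49 CPM in female 4 (at least 37.3-fold higher, adjusted p = 0.0431). Its call was lost in 15 of 22 alternative settings. As Star and Hsd17b1 had no count and Hsd3b1 had 1 count without Cyp11a1, these genes passed the filter only through the other embryos. Their direction was thus fixed, and their p-values add no support.

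Not every enzyme or carrier of steroid synthesis passed the test. Fdx1, the electron donor of the Cyp11a1 enzyme, was at 12.2, 15.8 and 18.9 CPM without Cyp11a1 and between 22.6 and 83.8 CPM with it. Although the groups did not overlap, the difference of 1.17 ± 0.46 (log2, SE) had an adjusted p of 0.117. Fdxr, which passes electrons to Fdx1, ranged from 0 to 16.7 CPM without and from 4.34 to 46.7 CPM with Cyp11a1 (adjusted p = 0.649). Cyp19a1, the aromatase that makes estrogen, was at 0 to 7.22 CPM without and at 0 to 7.91 CPM with it (adjusted p = 0.827). Hsd17b7 overlapped likewise (adjusted p = 0.693). For these last 3 genes the ranges of the groups overlapped.

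Hormone and receptor genes of granulosa cells were called in part. Those called, Inha, Lhcgr and Fst, had no count in any embryo without Cyp11a1. Their direction was thus fixed, and their p-values add no support. Inha, the alpha subunit of inhibin, had no count without Cyp11a1 and 8.38, 36.1 and 168 CPM at its lowest, median and highest with it (at least 606-fold higher, adjusted p = 0.000398). Lhcgr, the receptor for luteinizing hormone, had no count without Cyp11a1; with it, female 5 was also at 0, the median was 8.04 CPM and female 4 reached 59.6 CPM (at least 145-fold higher, adjusted p = 0.0109). Fst, whose product follistatin binds activin, was at 0 in all 3 embryos without and in females 2 and 3 with Cyp11a1, and at most 9.96 CPM (at least 43.7-fold higher, adjusted p = 0.0491), and its call was lost in 15 of 22 alternative settings. The activin and inhibin beta subunits Inhba (adjusted p = 0.078) and Inhbb (adjusted p = 0.158) did not pass, at no more than 6.89 and 10.2 CPM in any embryo with Cyp11a1. Of the other tested genes, Prlr, Gata4, Amhr2, Kitl, Gja1, Runx2 and Serpine2 were not called, with adjusted p from 0.0799 for Prlr to 0.946 for Gja1. Gata4 and Amhr2 were at 221 to 264 and 77.9 to 180 CPM without Cyp11a1, so these granulosa-named RNAs were present in embryos that lacked Inha and Star counts.

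Nr5a2, a nuclear receptor known to act on steroid genes, went the other way. It stood at 271, 314 and 350 CPM without Cyp11a1 and at 164, 204 and 325 CPM (lowest, median, highest) with it. The ranges overlapped, and Nr5a2 fell by 0.79 ± 0.22 on the log2 scale (SE; adjusted p = 0.0298). The call was lost in 10 of 22 alternative settings, among them leaving out female 1, male 1 or male 2.

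In all, 7 of the 21 tested genes of the granulosa and steroid list were higher and 1 was lower, beside 3.52% and 6.01% of all genes; the list held 30 genes, all in the count table. Cyp11a1 was set aside and the rest did not pass the filter on low counts. Of the 21, 6 had no count in any embryo without Cyp11a1, so their direction was fixed as described. Those of them called higher were Star, Hsd17b1, Inha, Lhcgr and Fst, and Hsd3b1, with 1 count, was fixed likewise. The share of higher genes in this list is thus not read as support. Leaving out 1 embryo at a time gave 5 to 7 higher genes. With male 2 counted among the embryos with Cyp11a1 for its 2 counts, 2 were called.

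**Figure D2:**
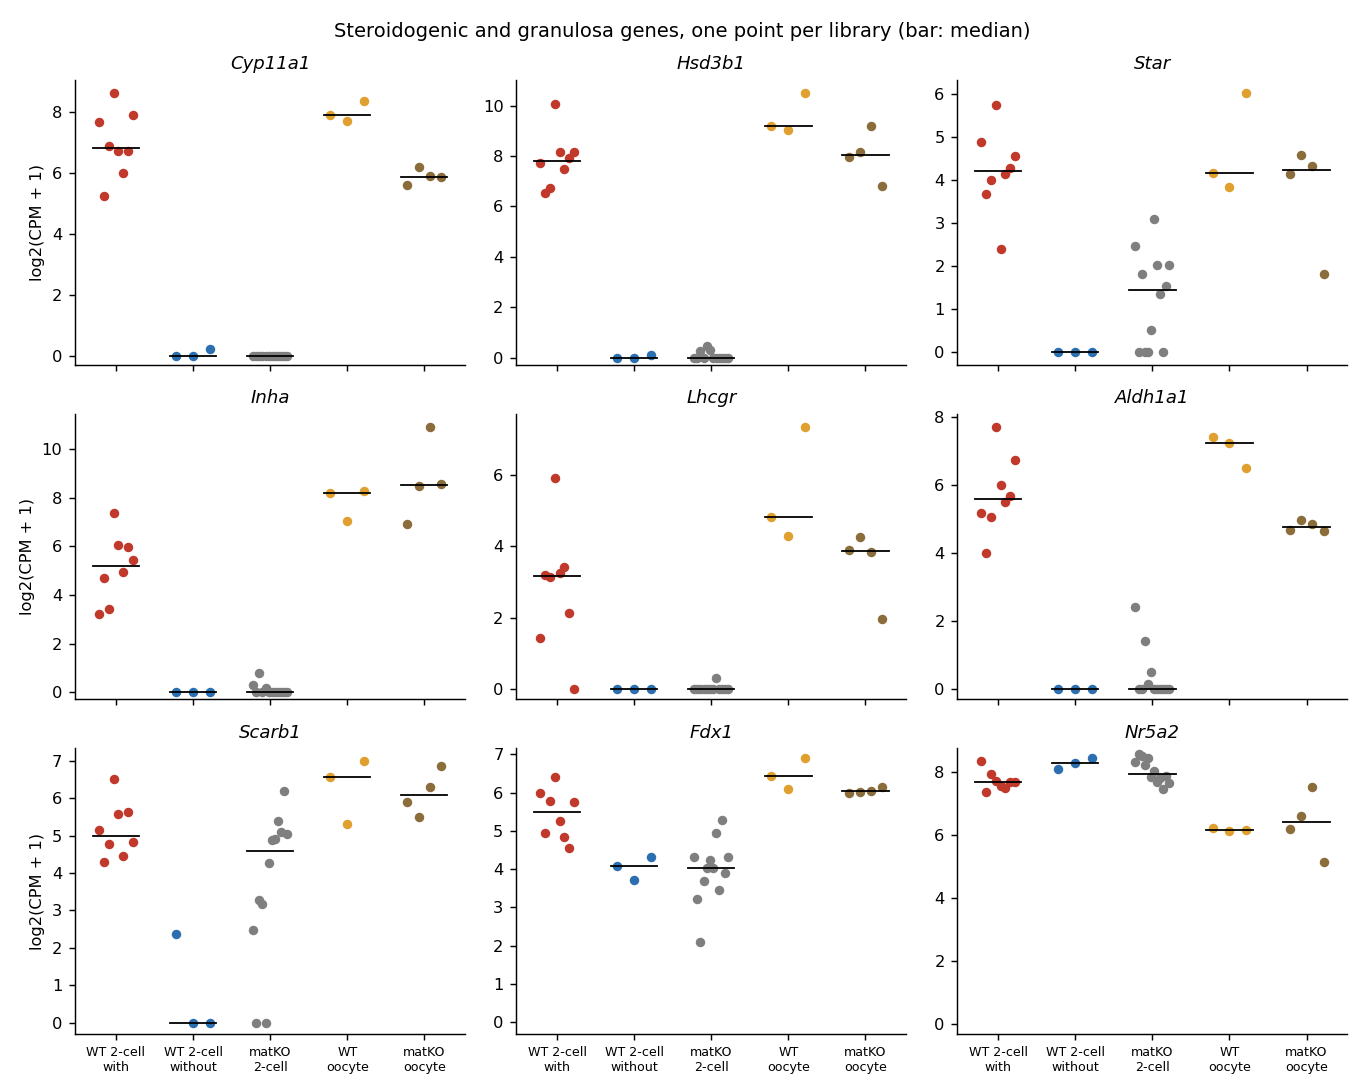
Levels of 9 genes as log2(CPM + 1), 1 point per library and a bar at the group median, for WT 2-cell embryos with and without Cyp11a1, matKO 2-cell embryos, and WT and matKO oocytes. Hsd3b1 and Inha are near or at 0 in both 2-cell groups that lack Cyp11a1, while Star and Scarb1 reach up to 7.62 and 72.8 CPM in matKO embryos and Nr5a2 is at 164 CPM or more in every 2-cell embryo.

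The upstream sequences of Hsd3b1, the most alike in pattern to Cyp11a1, and of Lhcgr are printed to show the letters in front of genes that moved together. They are the 250 bases before the RefSeq start (build GRCm38.p6), at chr3:98859795-98860044 and chr17:88792015-88792264, both on the minus strand, written 5′ to 3′. Capitals mark matches to AGGTCA, the half-site bound by many nuclear receptors, on either strand.
Hsd3b1: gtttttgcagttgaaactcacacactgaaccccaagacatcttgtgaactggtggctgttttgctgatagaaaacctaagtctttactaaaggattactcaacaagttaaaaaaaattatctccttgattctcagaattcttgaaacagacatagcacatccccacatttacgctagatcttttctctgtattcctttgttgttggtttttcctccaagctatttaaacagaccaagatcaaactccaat
Lhcgr: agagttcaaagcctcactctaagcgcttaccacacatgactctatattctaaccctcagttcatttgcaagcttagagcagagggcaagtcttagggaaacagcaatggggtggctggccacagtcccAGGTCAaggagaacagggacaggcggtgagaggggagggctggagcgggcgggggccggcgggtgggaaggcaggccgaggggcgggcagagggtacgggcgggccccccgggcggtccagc

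Of 9 genes looked up, Cyp11a1, Hsd3b1, Inha, Star, Aldh1a1, Lhcgr, Scarb1, Fst and Hsd17b1, 5 had an entry, with 7 windows between them. AGGTCA was in 3 of the 7 windows (1 each of Cyp11a1, Inha and Lhcgr), beside 14.0% of all 32851 windows of the table. The longer AAGGTCA, which contains it, was in 0 of the 7 and in 4.08% of all windows. The Inha window and 1 of the Cyp11a1 windows lie inside the annotated spans of their genes. The other Cyp11a1 window lies before the span, and the windows of these genes are not printed. A match describes letters only.

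Genes outside the steroid list followed Cyp11a1 as closely. Aldh1a1, which makes retinoic acid, had no count in the 3 embryos without Cyp11a1 and 15.0, 46.8 and 205 CPM (lowest, median, highest) in those with it. It was at least 807-fold higher (adjusted p = 0.000121) and was the 1 called gene of 7 tested in the retinoid list, beside 3.52% higher among all genes. Ephx2, a soluble epoxide hydrolase, had no count without and at 5.41 to 23 CPM with it (at least 160-fold higher). Adh1, an alcohol dehydrogenase, and Tenm4, a teneurin of the cell surface, were at 0 without and at most 49.4 and 38 CPM with Cyp11a1 (adjusted p = 0.00485 and 0.00338). Each of these 4 genes was highest in female 4, the embryo with the highest Cyp11a1. None of the 4 had a count in the 3 embryos without Cyp11a1, so their direction was fixed and their p-values add no support.

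By Pearson correlation of log2(CPM + 1) over the 11 embryos, the tested genes most like Cyp11a1 included Hsd3b1 (0.986), Aldh1a1, Idh1, Ephx2, Akr1cl, Mpnd, Mgp, Gm32996 and Star (0.958). These values rest on the gap between the groups, and they were the rule for naming the genes, so no test is given. Within the 8 embryos with Cyp11a1 the same correlation was 0.89 for Idh1, 0.89 for the aldo-keto reductase Akr1cl, 0.83 for Aldh1a1, 0.79 for Hsd3b1, 0.66 for Star and 0.32 for Inha. Akr1cl was not absent elsewhere: it was at 12.2, 16.9 and 25.3 CPM without Cyp11a1 and from 55.8 to 407 CPM with it. Idh1 had at most 0.171 CPM in any embryo without Cyp11a1 and 6.36 to 53.3 CPM with it. The ratio of Inha to Cyp11a1 ran from 0.0413 to 0.670 over the 8 embryos, and that of Hsd3b1 to Cyp11a1 from 0.886 to 2.83.

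Some RNAs known from connective tissue and vessels had counts in the embryos with Cyp11a1 and none, or almost none, in those without it. Of 19 tested genes of the stroma and decidua list, 6 were called higher and 0 lower, beside 3.52% and 6.01% of all genes. Each of the 6 had no count in any embryo without Cyp11a1, so their direction was fixed. Acta2, smooth muscle actin, was at 2.58, 8.42 and 43.1 CPM (lowest, median, highest) with Cyp11a1 (at least 152-fold higher, adjusted p = 0.00275). Mgp, a matrix protein, was at 3.43 to 13.6 CPM (at least 91.5-fold, adjusted p = 0.00369). Dcn, the matrix proteoglycan decorin, was at 0.593 to 14.4 CPM (at least 77.7-fold, adjusted p = 0.00992). Col4a1, a basement membrane collagen, and the fibrillar collagens Col1a2 and Col3a1 made up the rest. In edgeR 0 genes of this list were called with male 2 counted among the embryos with Cyp11a1. The intermediate filament gene Vim had no count without Cyp11a1, so its direction was fixed likewise. It had 3.28 to 31.5 CPM with Cyp11a1 (at least 203-fold, adjusted p = 0.000978). It was the 1 higher gene of 26 tested in the general somatic list, in which Cd63 and Ctsl were lower; the list summed to 3673 to 5248 CPM with and 5634 to 7227 CPM without Cyp11a1, without overlap. Kdr and Flt1, receptors for vascular endothelial growth factor, were the 2 higher genes of 8 tested in the endothelial list, at no more than 5.54 and 15.7 CPM in any embryo, beside 3.52% higher among all genes. Neither was called without female 1 or without male 1, 2, 3, 4 or 6, and their calls were lost in 11 and 15 of 22 settings. Kdr had no count in any embryo without Cyp11a1, so its direction was fixed too.

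In the lists of red cells, macrophages and leukocytes, and oviduct, 1 of 3, 1 of 11 and 1 of 7 tested genes were called higher. Among all genes the share was 3.52%. DESeq2 called 1, 5 and 2 higher in these lists, beside 1700 of all 14425 genes. Hbb-bs, an adult beta-globin, had no count without Cyp11a1 and none in female 2 with it, but 58.2 CPM in male 5 (median 7.11 CPM, adjusted p = 0.0197). Its direction was thus fixed. Lyz2, lysozyme of macrophages and granulocytes, was at 0.212, 0.425 and 0.599 CPM without Cyp11a1. With it, male 3 was at 0 and the others at 6.33 to 26.7 CPM, a difference of 5.12 ± 1.19 (log2, SE; adjusted p = 0.012). Ovgp1, an oviduct secretory protein, was at 0, 0 and 0.142 CPM without and 1.29 to 28.9 CPM with Cyp11a1 (6.63 ± 1.39, log2 and SE; adjusted p = 0.00663). It was the 1 higher gene of 7 tested in the oviduct list, and oviduct markers summed to a median of 196 CPM with and 256 CPM without Cyp11a1. Its level did not follow that of Cyp11a1 among the 8 embryos: female 2, lowest in Cyp11a1, was highest in Ovgp1. Lyz2 and Ovgp1 had only a few counts without Cyp11a1 and passed the filter only through the other embryos. Their direction was thus fixed, and their p-values add no support. Together the 149 genes that were called higher and had no count in any of the 3 embryos made up 0.0538% to 0.208% of the counts of an embryo with Cyp11a1.

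The markers copied for each cell type gave a mixed picture of the granulosa label. Of 15 granulosa and cumulus markers besides Cyp11a1, 7 to 13 had a count in an embryo with Cyp11a1, and 2 to 7 in an embryo without it. Foxl2 and Amh, defining genes of granulosa cells in growing follicles, had no count in any of the 8 embryos with Cyp11a1, nor in the 3 without. Summed over the 15 markers, levels were 449 to 1829 CPM with and 391.5 to 486 CPM without Cyp11a1. The markers of fibroblasts and uterine stroma summed to 6.70 to 84.0 CPM against 0, 0 and 3.51 CPM, with 4 of 5 at 0 in all 3 embryos without. Red cell markers summed to 3.35 to 129 CPM against 0 to 9.13 CPM, and macrophage markers to 12.6 to 52.3 CPM against 0.212 to 0.770 CPM. The cumulus expansion markers, active around ovulation, were at or below 17.7 CPM in sum in each embryo. Trophoblast markers summed to 1.99 to 41.5 CPM with and 16.7 to 41.3 CPM without Cyp11a1. In these single-embryo libraries, fewer cells of a type and less RNA per cell cannot be told apart. The part of other cell types in the differences of this split was not tested.

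**Figure D3:**
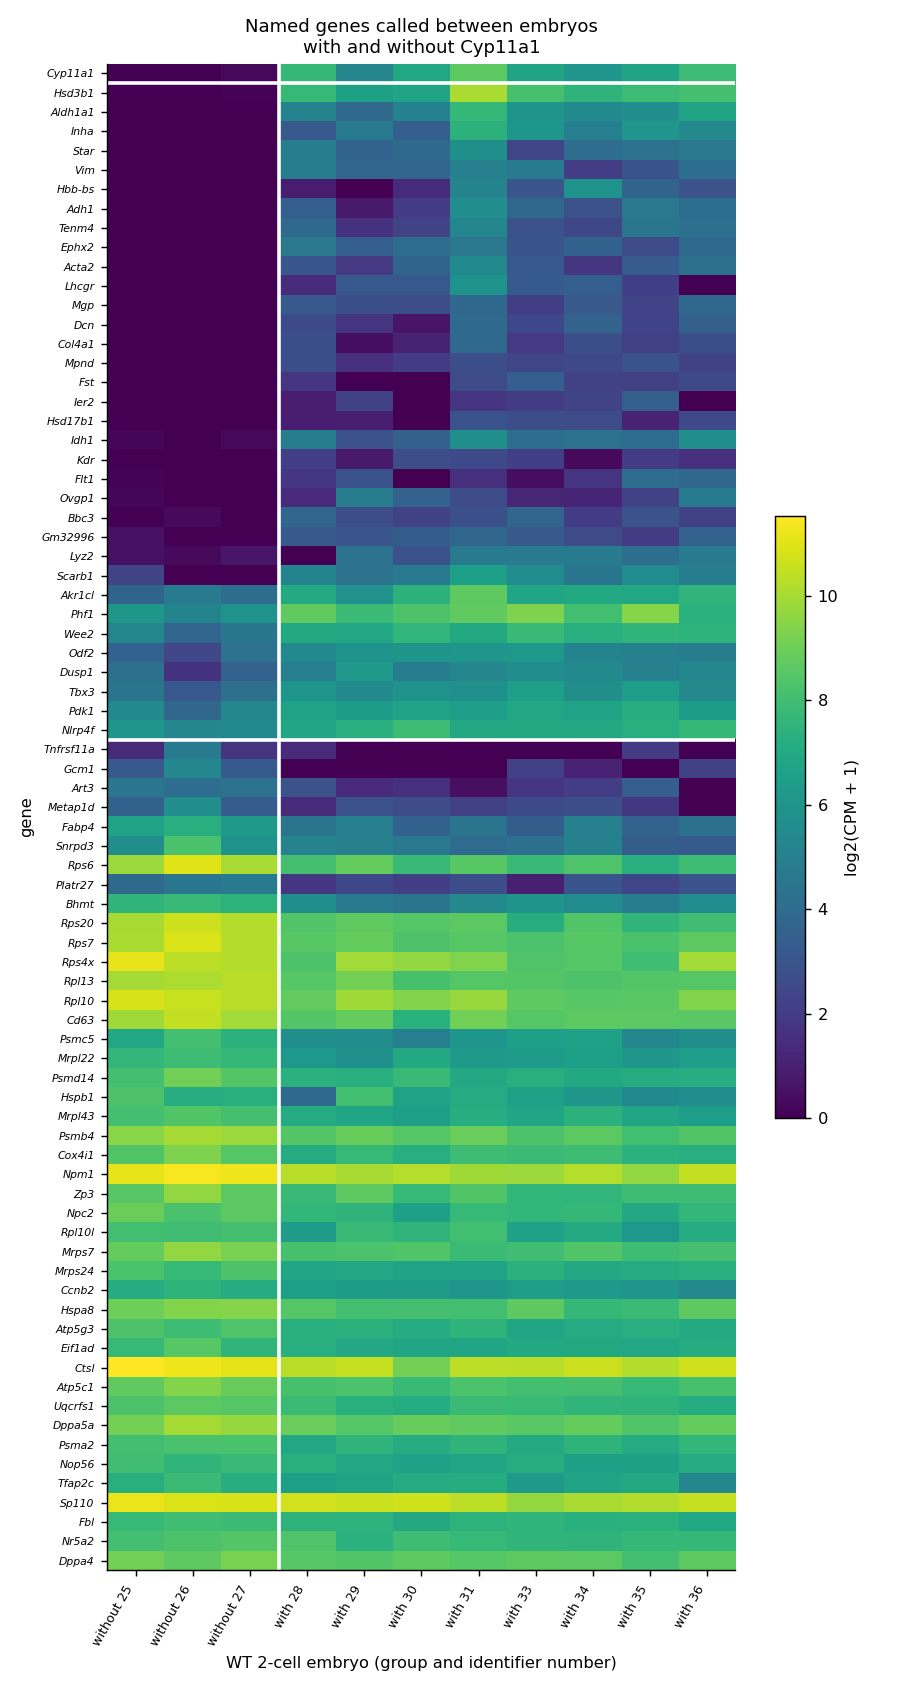
Levels of the named genes that were called, as log2(CPM + 1), 1 row per gene and 1 column per WT 2-cell embryo; the 3 columns on the left are the embryos without Cyp11a1. Below Cyp11a1 come the 34 higher genes and, under the second white line, the 43 lower genes, each ordered by the fitted log2 difference.

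Genes of the ribosome differed in the other direction. Of 83 tested genes for cytosolic ribosomal proteins, 66 were lower in the embryos with Cyp11a1 and 0 were higher (1 by DESeq2), beside 6.01% lower among all genes. Their median log2 difference was -1.52. This list and those for mitochondrial ribosomal proteins, the proteasome and oxidative phosphorylation were formed from gene symbols after the data were seen. Rps6, a protein of the small subunit, was at 879, 1068 and 2023 CPM without Cyp11a1 and 149, 263 and 449 CPM (lowest, median, highest) with it, and fell by 2.60 ± 0.32 (log2, SE; adjusted p = 0.000155). Rps20 stood at 1030, 1176 and 1621 CPM without and at 142 to 414 CPM with Cyp11a1 (adjusted p = 0.000116). For Rps7 the levels were 1068 to 1879 CPM without and 297 to 450 CPM with it (adjusted p = 6.11e-05). Groups did not overlap for 60 of the 83 genes, beside 4.03% of all. Ribosomal protein genes have many near-identical copies, and how reads with several matches were counted is not given, so single members are uncertain.

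Summed over the 83 genes, the level was 60950, 75676 and 95538 CPM in the embryos without Cyp11a1, highest in male 1. The embryos with Cyp11a1 lay at 28685 to 38994 CPM, all below. WT oocytes were at 24551 to 36928 CPM. In matKO 2-cell embryos, which all lack Cyp11a1 counts, the sum ran from 11610 to 76172 CPM, with the identifier numbers 37 to 41 at 42273.5 CPM or more and 42 to 48 at 26937 CPM or less. A low ribosomal sum was also measured in matKO embryos, which had no Cyp11a1 count. The number of lower ribosomal genes was 64 to 67 when 1 embryo was left out (67 without male 1), 65 without the 2 libraries under 2 M counts and 64 with log2 library total as a term. It was 38 with male 2 counted as an embryo with Cyp11a1 and 0 with the identifier number as a term.

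Short transcripts were lower more often than long ones, which is given because ribosomal genes are short. With the tested genes cut into 5 bins of about equal size by annotated length, 8.87% of the shortest bin and 3.02% of the longest were lower in the embryos with Cyp11a1. Without the ribosomal genes the share in the shortest bin was 7.72%. Within that bin, 37 of 51 ribosomal genes were lower, and the median log2 difference was -1.48 for them and 0.01 for the other genes of that length.

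Further genes of protein production and energy supply were lower. Beside 6.01% lower among all genes, the shares in 3 more lists were as follows. Of 76 tested mitochondrial ribosomal protein genes, 21 were lower and 0 higher (median -0.88). Mrpl43 stood at 280 to 335 CPM without Cyp11a1 and 87.7 to 168 CPM with it, and fell by 1.59 ± 0.21 (log2, SE; adjusted p = 0.000251). Of 43 proteasome genes, 24 were lower and 1, the activator Psme4, was higher (median -0.93). Psmb4, a subunit of the core particle, was at 721 to 1009 CPM without and 263 to 477 CPM with Cyp11a1, and fell by 1.58 ± 0.21. In the list for oxidative phosphorylation 16 of 76 were lower and 1 was higher, with a list median of -0.53; Atp5g3 of the ATP synthase fell by 1.33 ± 0.19. Leaving out 1 embryo gave 12 to 24, 16 to 23 and 7 to 20 lower genes in these 3 lists; the lowest values came without male 6, male 1 and male 6, and the third list also fell to 8 without male 1 and 9 without male 4. With male 2 counted among the embryos with Cyp11a1 the counts were 3, 9 and 4, and in a fit of all 23 2-cell libraries 0, 2 and 0.

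**Figure D4:**
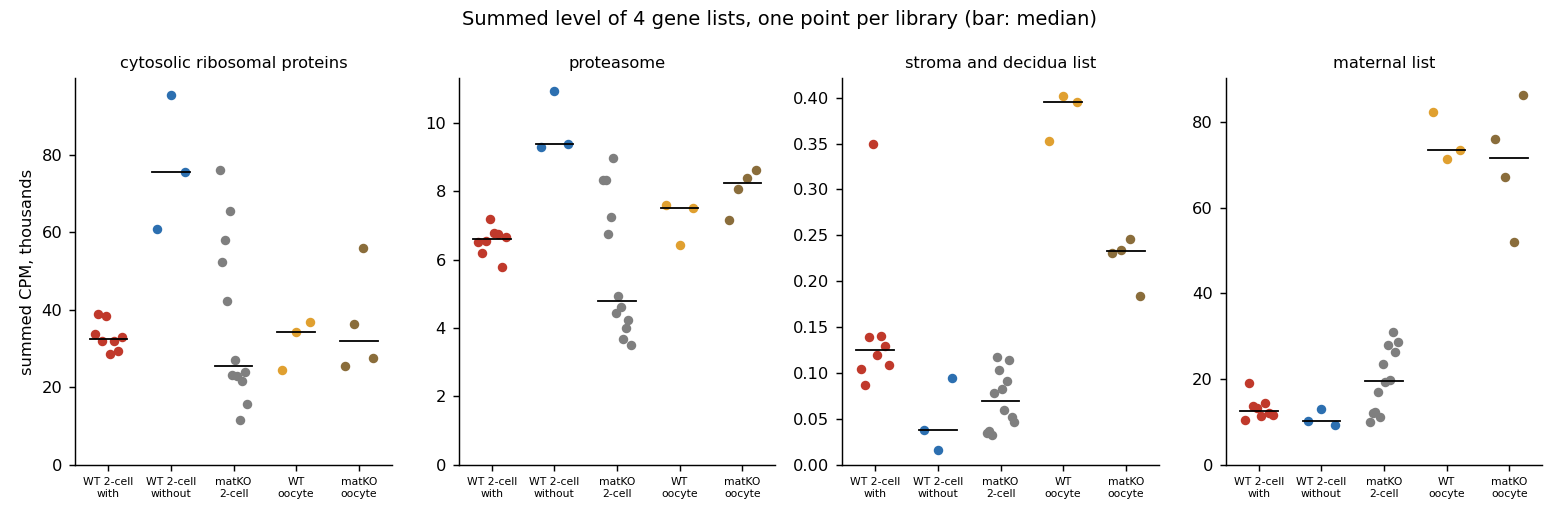
Summed level of 4 gene lists in units of 1000 CPM, 1 point per library with a bar at the group median. Cytosolic ribosomal protein genes are at 60950 CPM or more in the 3 WT embryos without Cyp11a1 and at 38994 CPM or less in the 8 with it, while matKO embryos span both; the stroma and decidua list is highest among 2-cell embryos in female 4.

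Genes that mark the stage moved in both directions. Of 41 tested maternal genes, 10 were higher and 4 lower in the embryos with Cyp11a1, beside 3.52% and 6.01% of all genes. Wee2, the kinase that holds the oocyte in meiotic arrest, was at 12.6, 21 and 38.6 CPM without Cyp11a1 and 121, 163 and 222 CPM with it, a difference of 2.50 ± 0.34 (log2, SE; adjusted p = 0.000272). Nlrp4f, a maternal NLR protein gene, was at 39.1 to 64.8 CPM without and 113 to 238 CPM with Cyp11a1 (adjusted p = 0.00574). Zp3, of the egg coat, fell by 1.44 ± 0.30 from 368, 398 and 808 CPM, and Ccnb2, a mitotic cyclin, fell by 1.35 ± 0.25; Dppa3 and Ccnb1 were the other 2 lower genes. The number of higher maternal genes depended on single embryos: it was 6, 5, 3, 4, 5 and 3 without female 2 and males 1, 2, 4, 5 and 6. The lower ones numbered 2 without male 1. In matKO embryos, all at 0 counts of Cyp11a1, the maternal list summed to 9924 to 16930 CPM for the identifier numbers 37 to 41. For 42 to 48 it summed to 19326 to 30861 CPM. Wee2 was at 10.4 to 77.7 CPM in the former and 379 to 1078 CPM in the latter. High maternal levels were also measured in matKO embryos, which lacked Cyp11a1 counts.

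Of 31 tested 2-cell genes 4 were lower and 0 higher in edgeR, and the list median of 0.30 was close to that of all genes. DESeq2 called 4 higher and 4 lower, and the newer edgeR fit 5 higher and 4 lower, so that no direction is given for this list. The 4 lower genes were Eif1ad, Sp110, Dppa4 and Rpl10l. Eif1ad was at 183, 212 and 367 CPM without Cyp11a1 and 107 to 153 CPM with it, and fell by 1.3 ± 0.24 (adjusted p = 0.00289). Sp110, a nuclear body protein, fell by 0.93 ± 0.21 and Dppa4 by 0.76 ± 0.19. Among 21 general genes of genome activation, 7 were lower and 0 higher, beside 6.01% lower among all genes. Without male 6 the number was 4, and without male 1, 4 or 5 it was 5. Npm1, nucleophosmin of the nucleolus, stood at 2168, 2410 and 2723 CPM without and 802 to 1425 CPM with Cyp11a1, and fell by 1.46 ± 0.21 (adjusted p = 0.000433). Nop56 and Fbl, parts of the nucleolar machinery that modifies ribosomal RNA, fell by 1.17 ± 0.22 and 0.80 ± 0.20. The Polycomb list held 1 called gene of 12, beside 9.53% called in either direction among all genes, so the list as a whole is not read. That gene was Phf1, an accessory subunit of PRC2. It was at 35.6, 58.3 and 68.7 CPM without Cyp11a1 and 166, 364 and 691 CPM with it, a difference of 2.55 ± 0.37 (adjusted p = 0.000479). In matKO embryos, all at 0 counts of Cyp11a1, Phf1 ran from 50.8 to 861 CPM.

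The largest falls outside the ribosome included Tnfrsf11a, Gcm1, Art3, Metap1d, Fabp4, Snrpd3, Platr27 and Bhmt. Bhmt, which methylates homocysteine, was at 174, 184 and 216 CPM without Cyp11a1 and 20.8 to 62.2 CPM with it, and fell by 2.52 ± 0.28 (adjusted p = 0.000105). Fabp4, a fatty acid carrier, was at 71.3 to 152 CPM without and 9.62 to 31.6 CPM with it (adjusted p = 0.000515). Gcm1, a transcription factor of the placenta, was at 8.28, 8.64 and 39.2 CPM without Cyp11a1 and at 0 in 5 of the 8 embryos with it (adjusted p = 0.0423). Male 1 was the highest of the 11 for Gcm1, Metap1d, Snrpd3, Tnfrsf11a and Fabp4. Gcm1, Tnfrsf11a and Metap1d were not called without male 1, and in all their calls were lost in 12, 12 and 15 of 22 alternative settings.

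**Figure D5:**
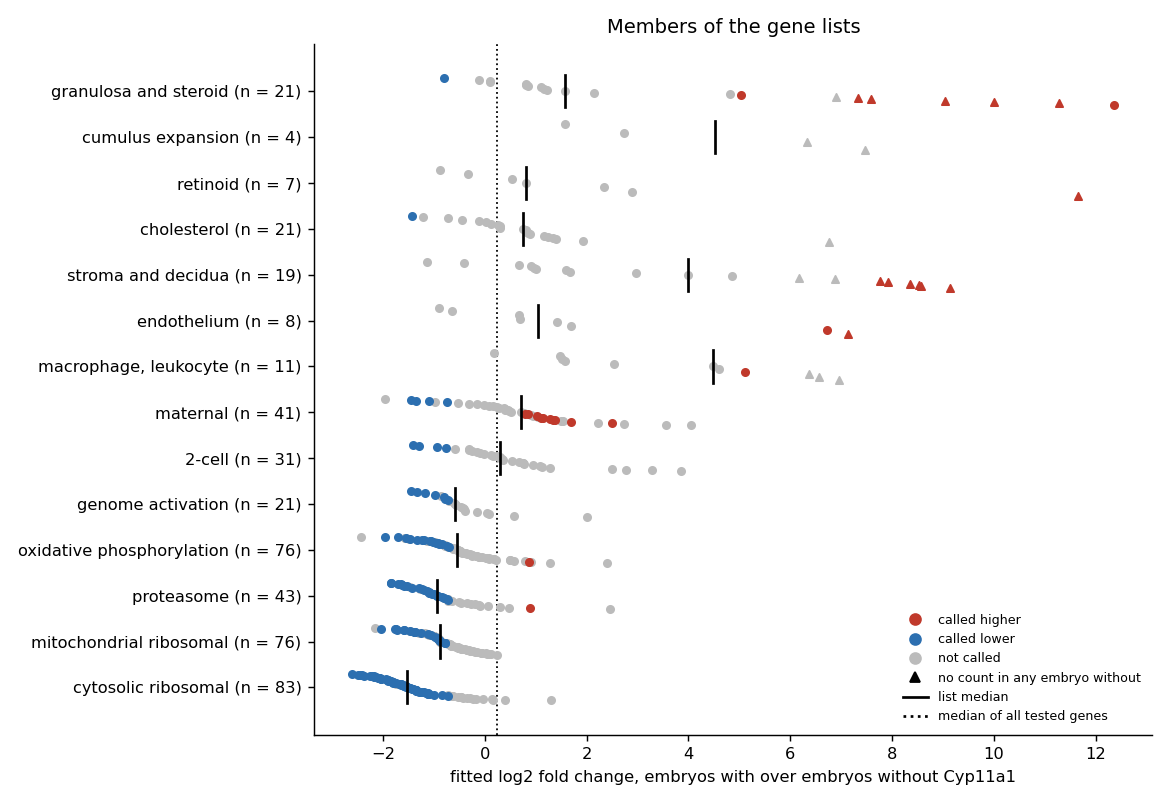
Fitted log2 difference, embryos with over embryos without Cyp11a1, for each tested member of 14 gene lists; colour gives the call, triangles mark genes with no count in any embryo without Cyp11a1 (their fitted values are not bounds), black bars the list medians and the dotted line the median of all tested genes, 0.24. The cytosolic ribosomal list has its median at -1.52, and the stroma and decidua list at 4.

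The 3 WT embryos without Cyp11a1 were set beside the 12 matKO embryos, to see which differences between WT and matKO remained where neither side had the gene. These WT embryos have the identifier numbers 25 to 27 and the matKO embryos 37 to 48. Genotype and identifier number thus cannot be told apart here. Of 15980 genes tested, 520 were higher (3.25%) and 393 lower (2.46%), 5.71% in all, in these WT embryos (edgeR quasi-likelihood test, all 23 2-cell libraries in 1 fit). This comparison uses the same 3 embryos as the split, so shared genes are no separate evidence. Ezhip (AU022751) was at 31.3 to 146 CPM in the 3 WT embryos and at most 19.1 CPM in a matKO embryo, a difference of 4.88 ± 0.68 (log2, SE; adjusted p = 0.000338). Hand1, a transcription factor of trophoblast, was at 16.7 to 37.4 CPM against at most 1.09 CPM (6.51 ± 0.86, adjusted p = 0.000338). Gab1, a noncanonical imprinted gene, was higher by 3.15 ± 0.86 (adjusted p = 0.0322), a call lost in 8 of 20 alternative settings. The matKO embryos were not alike in Gab1. Those with the identifier numbers 37 to 40 were at 14.8 to 21.4 CPM, and 41 to 48 at 0 to 7.62 CPM. Tacr3, a neurokinin receptor, was at 5.98 to 57.2 CPM in matKO embryos. It fell by 7.10 ± 1.36 from matKO to these WT embryos (adjusted p = 0.00855). Tacr3 had too few counts to be tested in the split, so here it passed the filter through the matKO embryos. Hand1, in turn, passed it through WT embryos. The direction of both was thus fixed, and their p-values add no support. Zfp352, a 2-cell gene, fell by 4.54 ± 0.98 (adjusted p = 0.0148). It was at 77.1 to 153 CPM in the matKO embryos numbered 37 to 41 and at 333 to 876 CPM in 42 to 48.

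Hsd3b1 was at 0 to 0.356 CPM in matKO embryos and was not called against the WT embryos without Cyp11a1 (log2 -0.98 ± 1.15, adjusted p = 0.603). Inha had a count in 3 matKO embryos and 0.729 CPM at most (adjusted p = 0.2), and Aldh1a1 had at most 4.30 CPM (adjusted p = 0.0868). Other companions were present in matKO embryos despite 0 counts of Cyp11a1. Star reached 7.62 CPM there and was called lower in the WT embryos without Cyp11a1 (adjusted p = 0.0372), a call lost in 8 of 20 alternative settings. As Star had no count in those WT embryos, its direction was fixed and its p-value adds no support. Scarb1 had a median of 23.6 CPM in matKO embryos (adjusted p = 0.0955). Of the 34 named genes that were higher with Cyp11a1, 5 were lower in every matKO embryo than in each WT embryo with Cyp11a1, and 3 (Hsd17b1, Fst and Hbb-bs) had no count in any matKO embryo. The shares among all tested genes are not given, so these counts are not read as particular to the named genes. Of the 83 ribosomal genes, 41 were higher in the WT embryos without Cyp11a1 than in matKO and 0 were lower, beside 3.25% and 2.46% of all genes. The matKO embryos were not alike in this. Their ribosomal sum was 42273.5 to 76172 CPM for the numbers 37 to 41, overlapping the 60950 to 95538 CPM of these WT embryos. For 42 to 48 it was 11610 to 26937 CPM. Macrophage markers reached 2565 CPM in sum in a matKO embryo, against 0.770 CPM at most in these WT embryos, and their part was not tested.

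The calls of this comparison rested on few embryos. Without WT male 1 they fell to 23 higher and 6 lower, and without WT male 2 to 180 and 93, while without WT female 1 they were 504 and 621. Leaving out matKO male 1, 2, 3, 5 or 6 gave 265 to 292 higher and 174 to 201 lower genes. Without matKO female 1, female 4 or male 4 the counts rose to 758, 905 and 1010 higher and 745, 826 and 772 lower. Under RLE scaling they were 544 and 628, so that the share of higher genes among the calls moved from 57.0% to 46.4%.

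Oocytes were libraries that the rule did not use. Cyp11a1 had counts in all 7, with 206, 241 and 332 CPM in the WT oocytes and 47.3, 57.7, 58.7 and 72.1 CPM in the matKO oocytes. The difference of 2.16 ± 0.22 (log2, SE) was 1 of 3 called among 14838 genes (0.0202%; adjusted p = 0.00678). Ezhip itself and Aldh1a1 were the others; Aldh1a1 stood at 89.3 to 166 CPM in WT and 23.7 to 30.5 CPM in matKO oocytes. Without matKO oocyte 1 neither Cyp11a1 nor Aldh1a1 was called, and Aldh1a1 was also not called without WT oocyte 2 or matKO oocyte 2. Hsd3b1 was at 526 to 1455 CPM in WT and 111 to 587 CPM in matKO oocytes and was not called (adjusted p = 0.763). Of the 34 named genes higher with Cyp11a1, 31 had a count in all 7 oocytes. The exceptions were Hbb-bs, Ier2 and the apoptosis gene Bbc3. Each oocyte library had a count for 17350 to 20227 genes. The share among all tested genes is not given, so this count is not read as particular to the named genes. In later stages Cyp11a1 had a count in 4 of 28 blastocysts, with a highest level of 4.31 CPM, and in all 10 WT and 8 matKO samples of extraembryonic ectoderm, with medians of 0.773 and 6.03 CPM.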

How the data were processed

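The data were polyadenylated RNA of single oocytes and embryos, prepared per the labels' protocols with the Accel-NGS 2S kit. The values are gene counts, 1 table per stage, deposited by the authors. The submitters' processing notes name Trim Galore, STAR, SAMtools, featureCounts and mm10; their versions, the strand setting, the treatment of reads with several matches and the annotation are not stated there. Of the table columns, 8 matched no labelled sample and were not used. Counts in the 2-cell libraries totalled 1.05 to 14.1 M (1000000). Precision is limited by 8 against 3 libraries; as litters and donors are unnamed, p-values speak only to variation among these libraries, some of which may be technical. Within the 2 groups of WT 2-cell embryos no pair of libraries agreed within sampling noise (lowest chi-square per degree of freedom 10.1); other pairs were not compared.

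Levels are CPM on column totals. Genes passing filterByExpr (minimum count 10) were scaled by TMM and tested in edgeR 4.0.16 (R 4.3.3, limma 3.58.1) with estimateDisp and glmQLFit (robust, legacy = TRUE) and sex as a term. The Cyp11a1 row was left out before Benjamini-Hochberg adjustment over all genes tested; the threshold was 0.05. DESeq2 1.42.0 was an alternative, and permutation tests used SciPy 1.17.1 (Python 3.11.15, matplotlib 3.10.9). The WT embryos without Cyp11a1 and the matKO embryos were compared in a fit of all 23 2-cell libraries, the oocytes in a fit of their own. The fits were tested on simulated data. Correlations and the search for outliers used log2(CPM + 1).

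Named genes were all tested members of the granulosa and steroid list, up to 4 called genes of each other list, the 10 largest rises and falls with a mean of at least 5 CPM in 1 group, the 10 genes most like Cyp11a1, and a few genes of the matKO comparison. One gene that the rule selects is not reported here. The members and lists were chosen with earlier results of these data known, and the ribosomal, proteasome and oxidative phosphorylation lists after these results. Promoter windows are from RefSeq (GRCm38.p6).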

Additional observations from a re-analysis of the deposited data

Results flagged for a closer look

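Among the 8 embryos with Cyp11a1, 10 of 123 values examined had 1 embryo set apart from the rest by Dixon's criterion on the log2(CPM + 1) scale, the gap to the nearest embryo over the whole range. Chance alone flags about 1 in 20 groups. Female 4 was high in Hsd3b1, at 1067 CPM against 92.7 to 286 CPM in the other 7. It was also high in the summed granulosa and steroid list, at 2610 CPM against 926 to 1497 CPM, and in the summed stroma and decidua list, at 350 CPM against 86.3 to 140 CPM. Female 5 was low in the summed trophoblast list, at 116 CPM against 190 to 270 CPM, and in Ccnb2, at 41.9 CPM against 62.6 to 88.8 CPM. Female 3 was low in 2 lysosomal genes, Cd63 at 164 CPM against 343 to 539 CPM and Ctsl at 547 CPM against 1170 to 1679 CPM. Male 3, one of the 2 shallow libraries, had 0 CPM of Lyz2 against 6.33 to 26.7 CPM. Male 6 was low in Dppa4, at 261 CPM against 333 to 411 CPM. Female 2 was high in Rpl13, at 556 CPM against 286 to 375 CPM.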

How the results depend on the processing

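In the split, higher and lower genes numbered 508 and 867. DESeq2 gave 1700 higher, no filter on low counts 891 higher, and edgeR's newer fit 1779 higher and 1520 lower. Male 2 counted as an embryo with Cyp11a1 gave 87 and 264, a fit of all 23 2-cell libraries 79 and 167, and the identifier number as a term 2 and 0, where 1736 genes had an unadjusted p under 0.05. Without the 2 libraries under 2 M counts 315 were higher. Leaving out 1 embryo gave 228 to 629 higher and 559 to 934 lower. Of the 77 named genes called, 61 to 73 kept the call on leaving out 1 embryo, 30 with male 2 moved, 32 in the fit of 23 libraries and 2 with the identifier number; 0 changed direction under any setting. No paired analysis was possible because the 2 groups of the split share only 1 replicate number.

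For WT embryos without Cyp11a1 against matKO (520 higher, 393 lower), DESeq2 gave 927 and 2408, RLE 628 lower, no filter 254 lower, edgeR's newer fit 1409 and 1614, and leaving out 1 embryo 23 to 1010 higher and 6 to 826 lower. The replicate block gave 0 and 0 calls (1998 genes at an unadjusted p under 0.05); pairs correlated at -0.07, -0.04 and 0.04, so the numbers do not pair the embryos. In oocytes (3 higher, 0 lower), DESeq2 gave 15 and 21, the replicate block 1 and 0, with pairs at -0.17, 0.07 and 0.12, and leaving out 1 oocyte 1 to 4 higher and 0 lower. With male 2 moved, the difference in library total was -5.98 M (adjusted p = 0.145, exact permutation), and at equal depth the difference in genes was 2610. Calls of genes at a few counts are limited by the shallow libraries.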
